A study of Mus musculus with 8 samples.

Results

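The 10 genes described here are *Fos*, *Fosb*, *Jun*, *Junb*, *Jund*, *Egr1*, *Egr2*, *Atf3*, *Ier2* and *Zfp36*, subunits of the transcription factor AP-1 and other immediate early genes. They were picked by symbol after *Fos* had been seen at a higher level in *Troy*-EGFP+ than in *Troy*-EGFP– bulk cells, and they are 10 of 16180 genes in the bulk tables and 10 of 18836 genes in the single-cell tables. All mice were adult C57BL/6 mice, 7 to 9 weeks of age, of the *Troy*-EGFP-IRES-CreERT2 knockin line, in which a cassette with EGFP and a tamoxifen-inducible Cre takes the place of the coding region of *Troy* (*Tnfrsf19*), so EGFP stands in for *Troy* expression. Bulk RNA came from 3 sorted populations of 2 *Troy*-EGFP mice: viable (DAPI–) epidermal cells, ITGA6bright *Troy*-EGFP+ cells and ITGA6bright *Troy*-EGFP– cells, where bright integrin alpha 6 marks cells attached to the basement membrane. Single cells came from 4 *Troy*-EGFP mice that had no tamoxifen, sorted as ITGA6–, ITGA6bright *Troy*-EGFP– and ITGA6bright *Troy*-EGFP+ cells, and from 2 mice that carried Rosa26-LSL-tdTomato beside the *Troy* knockin. These male mice were homozygous for both, so they had no intact copy of *Troy*, and their cells were traced with tdTomato for 7 days after tamoxifen given at that age and sorted with other gates.

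AP-1 is a pair of proteins, either a FOS protein with a JUN protein or 2 JUN proteins, that binds DNA through a basic leucine zipper. ATF3 belongs to the same leucine zipper superfamily and can pair with JUN proteins. EGR1 and EGR2 are zinc finger transcription factors, ZFP36 (tristetraprolin) speeds the decay of unstable mRNAs, and IER2 is a nuclear protein of the same early response. Growth factors, wounding and cell isolation are known to switch many immediate early genes on within minutes through MAP kinases. Their signals reach SRF complexes at CArG boxes and CREB at cyclic AMP response elements (CREs). In epidermis, AP-1 proteins are known to control genes of keratinocyte differentiation, and *Egr2* (Krox20) is known for its expression in hair follicle keratinocytes.

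The 250 bases before the start of 4 members are shown. These members were picked because, in the main fits, 3 of them were called between epidermal cell classes and *Jun* was not. The sequences are from RefSeq, build GRCm38.p6, written 5′ to 3′ on the strand of the gene, and capitals mark matches to the motifs searched. *Fos* lies on chr12:85473640-85473889 (plus strand), *Junb* on chr8:84978749-84978998 (minus strand), *Jun* on chr4:95052223-95052472 (minus strand) and *Egr2* on chr10:67537620-67537869 (plus strand).
Fos: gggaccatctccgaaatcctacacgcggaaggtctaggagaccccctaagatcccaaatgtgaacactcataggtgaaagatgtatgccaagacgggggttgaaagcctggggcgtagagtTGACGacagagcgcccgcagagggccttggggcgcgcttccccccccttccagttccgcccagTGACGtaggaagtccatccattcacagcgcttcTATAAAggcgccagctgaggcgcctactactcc
Junb: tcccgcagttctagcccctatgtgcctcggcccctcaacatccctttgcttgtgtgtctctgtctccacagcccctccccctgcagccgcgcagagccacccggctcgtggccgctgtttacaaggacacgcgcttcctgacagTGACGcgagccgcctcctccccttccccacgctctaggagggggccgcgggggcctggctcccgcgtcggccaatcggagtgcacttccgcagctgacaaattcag
Jun: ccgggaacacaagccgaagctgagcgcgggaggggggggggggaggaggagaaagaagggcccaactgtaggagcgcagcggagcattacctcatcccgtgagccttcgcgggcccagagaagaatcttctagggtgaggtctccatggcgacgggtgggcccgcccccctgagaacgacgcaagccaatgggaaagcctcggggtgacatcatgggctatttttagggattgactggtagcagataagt
Egr2: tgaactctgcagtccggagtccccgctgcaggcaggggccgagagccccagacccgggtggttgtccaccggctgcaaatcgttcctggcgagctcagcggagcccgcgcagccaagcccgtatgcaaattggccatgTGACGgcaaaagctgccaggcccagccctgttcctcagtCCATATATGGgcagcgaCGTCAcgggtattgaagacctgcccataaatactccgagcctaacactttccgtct

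The motifs searched were the CArG box, the full CRE TGACGTCA, its first bases TGACG and the AP-1 site TGANTCA on both strands, and TATAAA on the strand of the gene. TGACG is part of the full CRE, so each full CRE also holds it. Over all 32851 windows of 250 bases, the CArG box stood in 1.47%, the full CRE in 1.55%, TGACG in 17.8%, TGANTCA in 6.75% and TATAAA in 7.59%. *Fos* held TGACG starting 129 and 66 bases before its start, and TATAAA 33 bases before it. *Junb* held TGACG 106 bases before the start, and the window of *Jun* held none of these motifs. *Egr2* has 5 windows in the table, of which 3 overlap and share their matches, and the one shown held a CArG box 73 bases and TGACG on either strand 112 and 56 bases before the start. Of the other members, *Atf3* and *Fosb* held TGACG and *Zfp36* held a CArG box. Windows were searched for 8 of the 10 members, all but *Ier2* and *Egr1*. A match describes letters and is not a binding site. Bases further upstream were not searched, so a motif absent from a window may lie beyond it.

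The bulk libraries held 157537 to 453005 counts on genes, fewest in the *Troy*-EGFP– cells. CEL-Seq2 and SORT-seq read the end of the transcript, so levels are given as CPM, counts (in single cells, estimated transcripts) scaled to a common total, with no correction for length, and the levels of different genes can be set side by side. The CPM of single genes in bulk libraries and class sums use the TMM-scaled total of the genes that passed the filter on low counts. Marker sums and the CPM of pooled or whole-plate cells use the total of all genes, so the scales differ by a factor for each library or sum. Of 2304 wells, 1109 held at least 1000 transcripts, 680 of them from *Troy*-EGFP mice and 429 from traced mice. The plates of mice 1 and 2 were shallower, with 71 and 129 such wells against 218 and 262 in mice 3 and 4. *Xist*, which female cells express, was seen on the plates of mice 3 and 4 and on no other plate. Mice are separate animals, and each single-cell mouse has 1 plate, so mouse and plate cannot be told apart.

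*Fos* and its paralog *Fosb* were higher in the *Troy*-EGFP+ libraries than in the *Troy*-EGFP– libraries of both mice. *Fos* stood at 742 and 789 CPM in *Troy*-EGFP+ cells, at 75.5 and 134 CPM in *Troy*-EGFP– cells and at 456 and 487 CPM in viable cells of mice 1 and 2. *Fosb* was at 155 and 185 CPM, 67.9 and 23.3 CPM, and 103 and 115 CPM in the same order. For both genes the viable libraries lay between the sorted ones and no library of one population overlapped another. The log2 difference between *Troy*-EGFP+ and *Troy*-EGFP– cells was 2.83 ± 0.34 (SE) for *Fos* and 1.95 ± 0.44 for *Fosb*, which rests on 9 and 4 counts in the *Troy*-EGFP– libraries. Without the *Troy*-EGFP– library of mouse 1 or mouse 2, the difference of *Fos* was 2.52 or 3.396 and that of *Fosb* 2.84 or 1.36. Members were chosen from this contrast, so its differences are a description and carry no test.

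**Figure D1:**
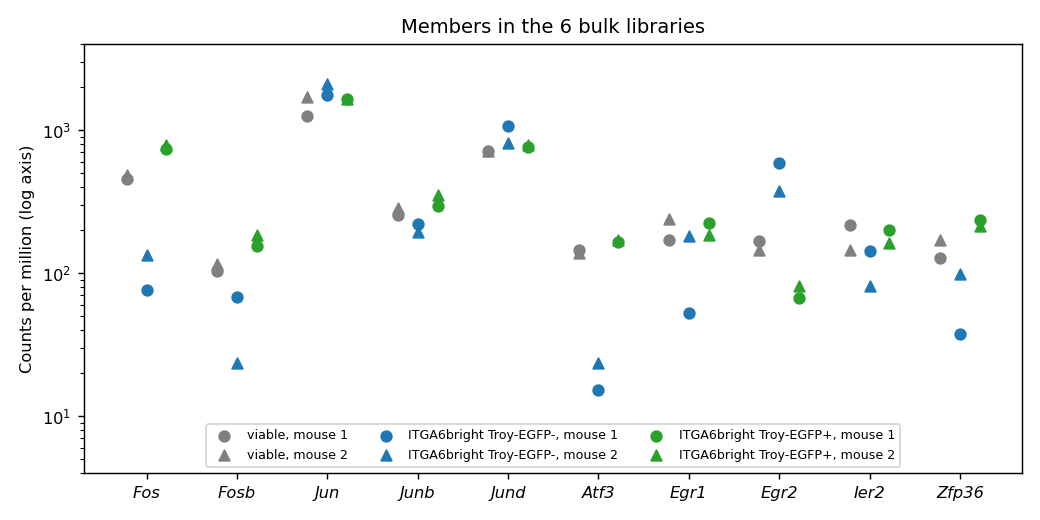
Level of each of the 10 genes in the 6 bulk libraries, in CPM on a log axis, with circles for mouse 1 and triangles for mouse 2. *Fos* and *Atf3* lie lowest in *Troy*-EGFP– cells (75.5 and 134 CPM, 15.1 and 23.3 CPM), *Egr2* lies highest there (589 and 373 CPM), and *Jun* and *Jund* lie between 713 and 2099 CPM in all libraries.

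*Atf3*, a stress-responsive partner of JUN proteins, had the largest difference of the 10, at 3.07 ± 0.47 on the log2 scale. Its level was 166 and 171 CPM in *Troy*-EGFP+ cells, 15.1 and 23.3 CPM in *Troy*-EGFP– cells and 146 and 137 CPM in viable cells. The *Troy*-EGFP– values rest on 2 and 4 counts. *Zfp36* stood at 236 and 212 CPM in *Troy*-EGFP+ cells against 37.7 and 99.1 CPM in *Troy*-EGFP– cells, a difference of 1.65 ± 0.40 that was 1.20 or 2.63 without the *Troy*-EGFP– library of mouse 1 or mouse 2. Viable cells held *Zfp36* at 128 and 171 CPM, between the sorted populations.

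*Jun* was the most abundant member in every library, and *Jun* and *Jund* had the smallest differences of the 10. *Jun* was at 1661 and 1651 CPM in *Troy*-EGFP+ cells, 1751 and 2099 CPM in *Troy*-EGFP– cells and 1247 and 1713 CPM in viable cells, with a log2 difference of -0.22 ± 0.30. *Jund* was at 758 and 785 CPM, 1064 and 810.5 CPM, and 713 and 714 CPM, with a difference of -0.28 ± 0.29. *Junb* was lower than either, with 295 and 352 CPM in *Troy*-EGFP+ cells and 219 and 192 CPM in *Troy*-EGFP– cells, a difference of 0.65 ± 0.30. *Junb* in viable cells was at 257 and 286 CPM.

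The EGR genes differed in direction. *Egr2* was at 67.0 and 81.2 CPM in *Troy*-EGFP+ cells, 589 and 373 CPM in *Troy*-EGFP– cells and 167 and 144 CPM in viable cells, a log2 difference of -2.70 ± 0.34. *Egr1* was at 225 and 185 CPM in *Troy*-EGFP+ cells but at 52.8 and 181 CPM in *Troy*-EGFP– cells, so both populations lay close together in mouse 2. Its difference of 0.76 ± 0.40 was 0.21 without the *Troy*-EGFP– library of mouse 1 and 2.03 without that of mouse 2. *Ier2* stood at 201 and 162 CPM against 143 and 81.6 CPM, a difference of 0.74 ± 0.37 that was 1.19 or 0.43 without the *Troy*-EGFP– library of mouse 1 or mouse 2. In the edgeR fit over 4653 genes, which called 328 genes or 7.05% at an adjusted p of 0.05, 4 members lay past that threshold upward (2.99% of all genes did) and 1 downward (4.06%). The median log2 difference was 0.75 over the members and -0.044 over all genes tested. Since this contrast chose the members, nothing is read from these counts.

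Cell type markers moved with the same contrast. The summed level of 6 upper hair follicle (HF) markers was 661 and 826 CPM in *Troy*-EGFP+ cells and 6475 and 3671 CPM in *Troy*-EGFP– cells. Langerhans cell markers summed to 102 and 92.7 CPM against 1187 and 1243 CPM, with 4 and 4 of 8 markers at any count against 7 and 8. Lower HF markers summed to 711 and 885 CPM against 1904 and 3873 CPM, and the markers of necrotic or removed cells to 7772 and 8477 CPM against 11534 and 17697 CPM. Markers of the interfollicular epidermis (IFE) were higher in *Troy*-EGFP+ cells, at 27507 and 27236 CPM against 15247 and 16337 CPM for basal IFE cells and at 3852 and 4270 CPM against 1397 and 924 CPM for committed IFE cells. The part of these cells in the differences was not tested. In bulk samples, fewer cells of a type and less RNA per cell cannot be told apart.

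Of the other genes that respond early or act on AP-1, 5 immediate early genes and 1 kinase were called between *Troy*-EGFP+ and *Troy*-EGFP– cells. Among 38 other immediate early genes 17 were tested, of which 4 rose and 1 fell, where 2.99% of all genes rose and 4.06% fell. The lists were drawn up with earlier results of this contrast known, so these counts are no independent evidence. *Dusp1*, a phosphatase that turns off MAP kinases, rose from 52.8 and 35.0 CPM to 220 and 207 CPM, by 2.31 ± 0.40 on the log2 scale (edgeR, adjusted p = 9.9e-04). *Klf4*, a transcription factor of keratinocyte differentiation, rose by 1.86 ± 0.31 to 1200 and 1096 CPM (adjusted p = 5.9e-04), and *Socs3*, an inhibitor of cytokine signaling, by 1.58 ± 0.37 (adjusted p = 0.0103). The nuclear receptor *Nr4a1* rose by 3.10 ± 0.80 (adjusted p = 0.0224) from 1 and 1 counts to 24 and 12 counts, a call that DESeq2 did not make (adjusted p = 0.246).

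The kinase genes *Sgk1* and *Mapk3* fell. *Sgk1*, a kinase induced by serum and glucocorticoids, fell by 1.27 ± 0.29 on the log2 scale (adjusted p = 0.0078), from 1064 and 793 CPM to 386 and 379 CPM. *Mapk3*, which encodes the MAP kinase ERK1, fell by 1.42 ± 0.32 (adjusted p = 0.0084), from 287 and 257 CPM to 113 and 85.7 CPM, and was not called by DESeq2 (adjusted p = 0.0916). Of the *Troy*-EGFP+ libraries, leaving out that of mouse 1 ended the calls of *Nr4a1*, *Socs3*, *Sgk1* and *Mapk3*, and leaving out that of mouse 2 ended those of *Sgk1* and *Mapk3* (adjusted p from 0.0717 to 0.255), with the 1 library left assumed to vary like the other populations. No gene was called among the 3 other AP-1 subunits tested (*Fosl2*, *Atf2* and *Atf7*), the 3 AP-1 target genes and the 10 heat shock genes. The median difference was 0.43 over the other immediate early genes, -0.25 over the 9 upstream kinases and factors tested, -0.33 over the AP-1 subunits, -0.67 over the targets and -0.23 over the heat shock genes.

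Another contrast set the mean log2 level of both ITGA6bright populations against viable cells. It did not serve to choose the members, but it uses the same *Troy*-EGFP+ and *Troy*-EGFP– libraries, so it is no independent test of them. In it 8 genes of 4653, 0.172%, were called by edgeR, and 0 of the 10 members were, with *Atf3* and *Fos* among the genes at an unadjusted p under 0.05, of which there were 266. DESeq2 called 4 genes in all. *Atf3* differed by -1.28 ± 0.33 (adjusted p = 0.305) and *Fos* by -0.72 ± 0.26 (adjusted p = 0.690), and the other members had an adjusted p of 0.989. Without the *Troy*-EGFP– library of mouse 2, *Fos* differed by -0.99 and *Atf3* by -1.49. In that fit the 1 *Troy*-EGFP– library left was assumed to vary like the other populations. The mean of 2 logs lies below the log of a mixture where the populations differ much, as they do for these genes. The median difference was -0.29 over the members and -0.0035 over all genes tested.

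In the single-cell data neither the members nor the list genes took part in the clustering. The epidermal cells of the *Troy*-EGFP mice formed 5 clusters, named by marker lists for undifferentiated basal cells of the IFE (IFE I-like, 165 cells), committed IFE cells with *Krt1* and *Krt10* (IFE II-like, 110 cells), lower HF cells (lower HF-like, 113 and 41 cells) and upper HF cells (upper HF-like, 74 cells). The smaller lower HF-like cluster, led by *Aspn*, had no own marker among its top 10 genes. Transcripts were summed per mouse and class where at least 10 cells were at hand, which gave 4 sums for IFE I-like cells and 3 for each other class, since mouse 1 had 10 IFE I-like cells and fewer of the rest. *Atf3* and *Fosb* did not pass the filter on low counts, so 8 members were tested among 2967 genes.

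*Fos* and *Junb* were higher in IFE-like than in HF-like cells of the *Troy*-EGFP mice. In mice 1 to 4, *Fos* stood at 103, 171, 167 and 154 CPM in IFE I-like cells. In mice 2 to 4 it stood at 41.2, 132 and 213 CPM in IFE II-like cells, at 10.6, 9.79 and 17.2 CPM in lower HF-like cells, and at 244, 27.1 and 67.6 CPM in upper HF-like cells. The lower HF-like values, from 1, 1 and 3 transcripts, lay below all others, while the upper HF-like values overlapped both IFE-like classes. The mean log2 level of the IFE-like classes was 1.91 ± 0.48 (SE) above that of the HF-like classes (edgeR, adjusted p = 0.0188). That comparison called 10.2% of all genes, 4.21% as higher and 6% as lower. *Fos* passed the filter on low counts mainly through IFE-like sums, with 4, 19, 30 and 34 transcripts in IFE I-like and 2, 28 and 38 in IFE II-like cells. Upper HF-like sums held 14, 2 and 8 transcripts. The test is therefore of a gene that entered it mainly through its high classes. With the mouse as a block, a fit that called 19.9% of all genes, the difference was 2.08 (adjusted p = 1.28e-04). Without mouse 3 the difference was 1.56 (adjusted p = 0.301) and without mouse 4 it was 1.62 (adjusted p = 0.355). The 4 markers of necrotic or removed cells had summed levels of 7705 to 31946 CPM in IFE-like and of 20871 to 40585 CPM in HF-like sums. In mice 2 and 4 both HF-like sums lay above both IFE-like sums. In mouse 3 the upper HF-like sum (20871 CPM) lay below those of IFE I-like (21691 CPM) and IFE II-like cells (25325 CPM). The part of these markers in the comparison was not tested.

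*Junb*, which like *Fos* encodes an AP-1 subunit, followed the same order. It stood at 206, 198, 384 and 307 CPM in IFE I-like cells, at 103, 340 and 347 CPM in IFE II-like cells, at 53.0, 88.1 and 97.6 CPM in lower HF-like cells and at 175, 162 and 186 CPM in upper HF-like cells. Lower HF-like cells again lay below every other class in every mouse. The difference between IFE-like and HF-like classes was 1.22 ± 0.29 (adjusted p = 0.0136), and 1.01 without mouse 3 (adjusted p = 0.351) and 1.18 without mouse 4 (adjusted p = 0.259). Between upper and lower HF-like cells *Junb* differed by 1.16 ± 0.44 (adjusted p = 0.176), and by 1.15 with the mouse as a block (adjusted p = 0.0395), where 14.8% of all genes were called.

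**Figure D2:**
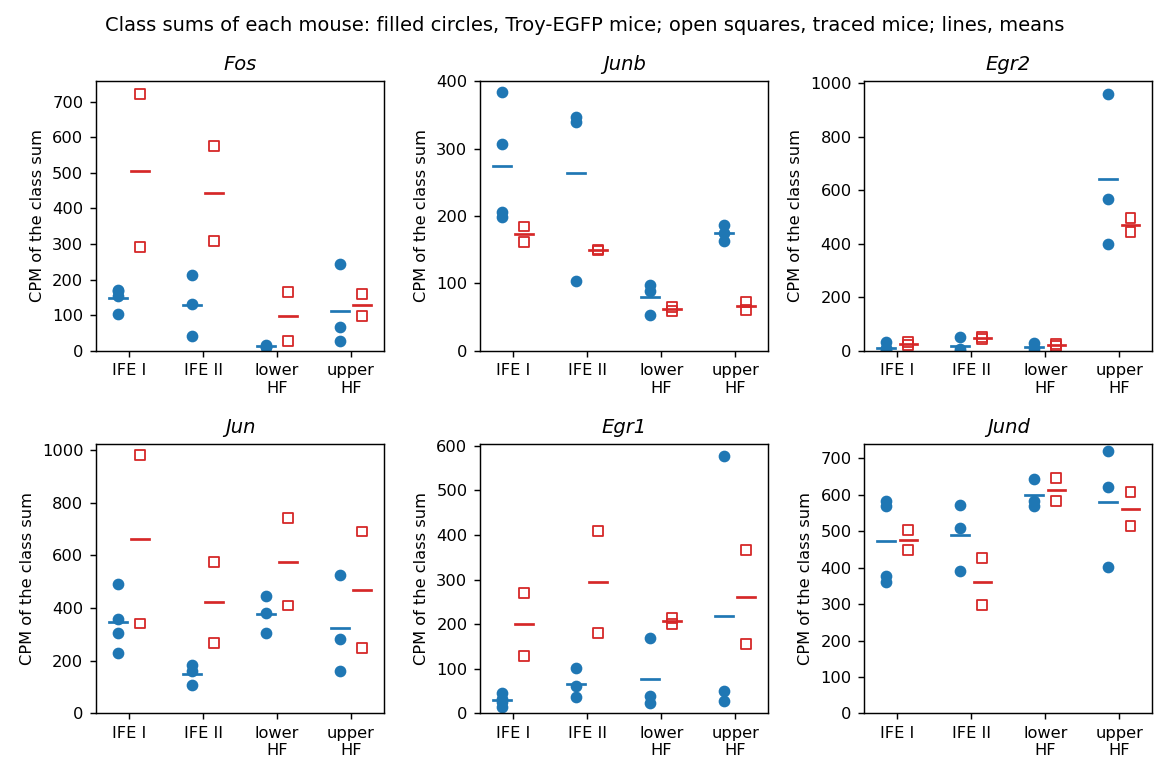
CPM of *Fos*, *Junb*, *Egr2*, *Jun*, *Egr1* and *Jund* in the sum of each class and mouse, with filled circles for *Troy*-EGFP mice, open squares for traced mice and lines at the means. *Egr2* lies between 397 and 960.2 CPM in upper HF-like cells of *Troy*-EGFP mice and at or below 50.4 CPM in their other classes, and *Fos* of *Troy*-EGFP mice is lowest in lower HF-like cells.

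*Fos* was also called between upper and lower HF-like cells, by 2.96 ± 0.80 (adjusted p = 0.0387). This call rests on few transcripts, 24 in upper HF-like cells and 5 in lower HF-like cells, and 14 of the former came from the 14 upper HF-like cells of mouse 2. Without mouse 2 the difference was 1.83 (adjusted p = 0.244), without mouse 3 it was 3.27 (adjusted p = 0.201), and without mouse 4 it was 3.66 (adjusted p = 0.230). The call was also lost with at least 20 cells per sum (1.91, adjusted p = 0.126), with traced mice added (1.24, adjusted p = 0.456), in wells with at least 2000 transcripts (2.94, adjusted p = 0.163) and without the *Aspn*-led cluster (2.88, adjusted p = 0.0731).

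*Egr2* was high in upper HF-like cells. It stood at 960.2, 568 and 397 CPM in the upper HF-like cells of mice 2 to 4, from 144 transcripts in all. In lower HF-like cells it was at 10.6, 29.4 and 0 CPM, from 4 transcripts. IFE I-like cells held 0, 8.99, 0 and 31.6 CPM and IFE II-like cells 0, 4.72 and 50.4 CPM, so no sum of another class reached the level of any upper HF-like sum. The log2 difference between upper and lower HF-like cells was 5.76 ± 0.96 (adjusted p = 0.0025), in a comparison that called 6.47% of all genes, 2.93% as higher and 3.54% as lower. *Egr2* was among the top 10 genes of the upper HF-like cluster although it took no part in the clustering. *Egr2* passed the filter on low counts only through upper HF-like cells, with 55, 42 and 47 transcripts there and at most 9 in every other sum. The test is therefore of a gene that entered it through its high class, and without the filter the difference was 5.69 (adjusted p = 9.84e-13). Between IFE-like and HF-like classes *Egr2* differed by -2.27 ± 0.88 (adjusted p = 0.149), and with the mouse as a block by -2.05 (adjusted p = 0.0486). Without mouse 4 that difference was -4.81 (adjusted p = 0.0135).

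**Figure D3:**
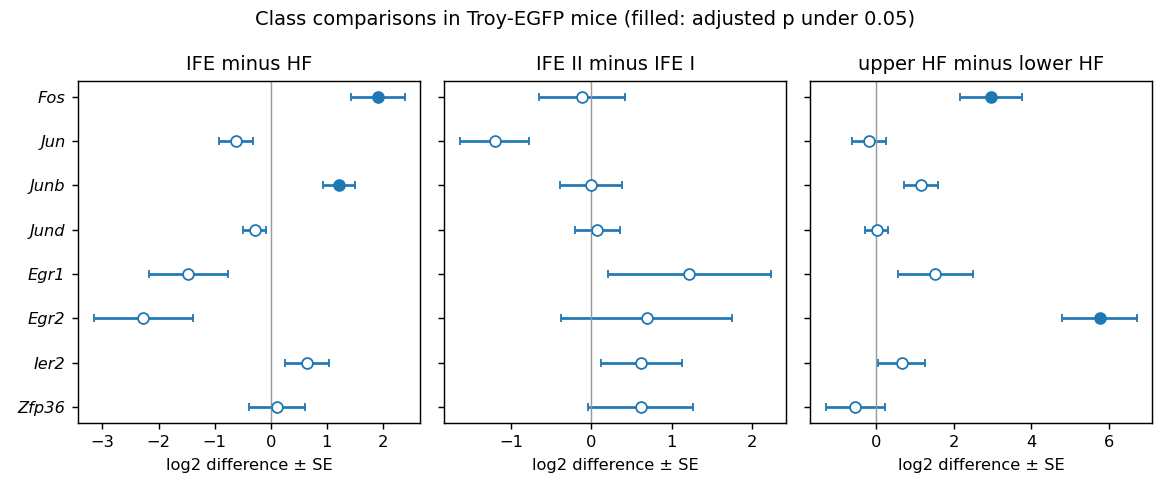
Log2 differences with standard errors of the 8 members tested in the 3 class comparisons of *Troy*-EGFP mice, with filled points for an adjusted p under 0.05. *Fos* (1.91) and *Junb* (1.22) are filled in IFE minus HF, no member is filled in IFE II minus IFE I, and *Egr2* (5.76) and *Fos* (2.96) are filled in upper minus lower HF.

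*Jun* and *Jund* had other patterns than *Fos*. *Jun* stood at 360.0, 306, 490 and 230 CPM in IFE I-like cells, at 185, 160 and 106 CPM in IFE II-like cells, at 445, 382 and 304 CPM in lower HF-like cells and at 524, 284 and 161 CPM in upper HF-like cells. Its IFE II-like sums were the lowest of each mouse. The difference between IFE II-like and IFE I-like cells was -1.21 ± 0.43 (adjusted p = 0.166), and -1.18 with the mouse as a block (adjusted p = 0.0043), where 12.3% of all genes were called. Without mouse 2 it was -1.40 (adjusted p = 0.0229). Between IFE-like and HF-like classes *Jun* differed by -0.61 ± 0.31 (adjusted p = 0.289), or by -0.60 with the block (adjusted p = 0.0407). *Jund* lay between 360 and 719 CPM in every sum of these mice, with differences of -0.28 ± 0.20, 0.07 ± 0.28 and 0.03 ± 0.30 in the 3 comparisons, none of them called.

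In HF-like cells, *Egr1* of mouse 2 stood apart. It stood at 576 CPM in upper HF-like and 169.5 CPM in lower HF-like cells of that mouse, against 27.1 to 50.7 CPM and 23.0 to 39.2 CPM in mice 3 and 4. IFE I-like cells held 13.6 to 45.0 CPM and IFE II-like cells 37.7 to 101 CPM. The difference between IFE-like and HF-like classes of -1.47 ± 0.71 was not called (adjusted p = 0.264), and it was 0.31 in wells with at least 2000 transcripts.

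*Ier2* ranged from 0 to 184 CPM in IFE I-like, from 103 to 213 CPM in IFE II-like, from 48.9 to 91.8 CPM in lower HF-like and from 93.0 to 122 CPM in upper HF-like cells. Its difference between IFE-like and HF-like classes was 0.65 ± 0.39 (adjusted p = 0.423), and 0.77 with the mouse as a block (adjusted p = 0.0482). *Zfp36* lay between 0 and 215 CPM and was called in no comparison. *Fosb* was at 66.8 and 76.8 CPM in IFE I-like and at 80.2 and 95.2 CPM in IFE II-like cells of mice 3 and 4, with 0 transcripts in the sums of mice 1 and 2. Mice 1 and 2 had the shallower plates and no *Xist*, which cannot be told apart here. *Atf3* had 33 transcripts in the 4 classes, 15 of them in lower HF-like cells.

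Between IFE II-like and IFE I-like cells, 4.45% of the genes tested were called and 0 of the 8 members were. At an unadjusted p under 0.05, 440 genes differed and *Jun* did, and DESeq2 called 159 genes, *Jun* not among them (adjusted p = 0.160). *Fos* differed by -0.12 ± 0.53 and *Junb* by 0.00 ± 0.39, so a difference of the size of these errors would not have been detected.

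Genes of the pathway differed between classes gene by gene. Of 13 other immediate early genes tested, 2 rose and 2 fell in IFE-like against HF-like cells. *Btg1*, an antiproliferative gene, rose by 0.81 ± 0.19 (adjusted p = 0.0154) and *Klf4* by 0.85 ± 0.21 (adjusted p = 0.0177), while *Sgk1* fell by 1.03 ± 0.27 (adjusted p = 0.0247). *Ctgf*, which encodes a secreted matrix protein, fell by 3.87 ± 0.79 (edgeR, adjusted p = 0.0057). It was highest in lower HF-like cells, with a mean of 781 CPM against 27.6 CPM in upper HF-like cells, a difference of -5.00 ± 0.77 (adjusted p = 0.0018). Its means in IFE I-like and IFE II-like cells were 13.3 and 3.69 CPM, so *Ctgf* passed the filter on low counts through its high class. *Zfp36l1*, a relative of *Zfp36*, was lower in IFE II-like than in IFE I-like cells by -1.56 ± 0.37 (adjusted p = 0.0286). *Btg1*, *Klf4*, *Sgk1* and *Zfp36l1* lost their calls without mouse 3 and without mouse 4 (adjusted p from 0.158 to 0.391), and *Zfp36l1* also without mouse 1 (-1.45, adjusted p = 0.0543). With the mouse as a block, *Zfp36l2* (0.90, adjusted p = 1.2e-04) and *Cyr61* (-1.93, adjusted p = 0.0216) were also called between IFE-like and HF-like cells, *Klf4* (0.99, adjusted p = 5.8e-04) and *Cyr61* (-3.65, adjusted p = 0.0058) between IFE II-like and IFE I-like cells, and *Klf4* (-1.12, adjusted p = 6.0e-04) and *Zfp36l1* (-1.29, adjusted p = 3.1e-04) between upper and lower HF-like cells. Without a filter, *Btg1* (adjusted p = 0.115), *Klf4* (0.0556) and *Sgk1* (0.0906) lost their calls. In wells with at least 2000 transcripts, *Sgk1* (adjusted p = 0.0927), *Zfp36l1* (0.0563) and, between IFE-like and HF-like cells, *Ctgf* (0.205) did. *Zfp36l1* also lost its call with at least 20 cells per sum (adjusted p = 0.0765), and *Sgk1* without the *Aspn*-led cluster (0.0562). *Ctgf* lost its first call without mouse 3 (-2.87, adjusted p = 0.338) and the second without mouse 4 (-3.97, adjusted p = 0.132).

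Of the 10 listed AP-1 target genes, 3 were tested. *Cd44*, a hyaluronan receptor, was lower in IFE-like than in HF-like cells by -1.62 ± 0.26 (adjusted p = 0.0010) and lower in IFE II-like than in IFE I-like cells by -1.48 ± 0.38 (adjusted p = 0.0421). The cyclin gene *Ccnd1* was lower in IFE II-like than in IFE I-like cells, with means of 53.0 and 356 CPM and a difference of -3.55 ± 0.76 (adjusted p = 0.0162). *Ivl*, which encodes involucrin of the cornified envelope, was higher in upper than in lower HF-like cells by 5.88 ± 1.53 (edgeR, adjusted p = 0.0437). DESeq2 did not make this call (adjusted p = 0.374). Mean *Ivl* was 242 CPM in upper HF-like cells and 0, 23.7 and 3.84 CPM in IFE I-like, IFE II-like and lower HF-like cells. It thus passed the filter on low counts through its high class. The calls of *Cd44* in IFE II-like against IFE I-like cells, *Ccnd1* and *Ivl* were lost without mouse 3 and without mouse 4 (adjusted p from 0.325 to 0.421), that of *Cd44* in IFE II-like against IFE I-like cells also without mouse 1 (-1.54, adjusted p = 0.0550), and that of *Cd44* in IFE-like against HF-like cells without mouse 4 (-1.70, adjusted p = 0.0502). The call of *Cd44* between IFE II-like and IFE I-like cells was also lost with at least 20 cells per sum (adjusted p = 0.0934), without a filter (0.0896), with traced mice added (-0.97, adjusted p = 0.138) and in wells with at least 2000 transcripts (0.175). *Ccnd1* (adjusted p = 0.135) and *Ivl* (0.137) lost theirs in wells with at least 2000 transcripts, and *Ivl* also without the *Aspn*-led cluster (0.0611). Over the 8 members tested, the median log2 difference was -0.082 in IFE against HF, 0.34 in IFE II against IFE I and 0.91 in upper against lower HF, against -0.0052, -0.023 and -0.036 over all genes. These medians cover only members that passed the filter, some through 1 class. In the 3 comparisons 0 of 10 heat shock genes, 0 of 2 other AP-1 subunits and 0 of 4 upstream kinases and factors were called. With the mouse as a block, the small heat shock gene *Hspb1* was called between IFE II-like and IFE I-like cells (0.86, adjusted p = 0.0013), and the chaperone genes *Hsp90aa1* (-0.96, adjusted p = 0.0043), *Hspd1* (1.22, adjusted p = 0.0156) and *Hspe1* (0.98, adjusted p = 0.0205) between upper and lower HF-like cells.

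The share of cells with a transcript was compared for *Egr2* and *Fos*. Each cell was thinned to 1000 transcripts, since median depth ran from 2189 to 5885 transcripts per cell among class sums. After thinning, *Egr2* was expected in 46.9%, 33.2% and 25.5% of upper HF-like cells of mice 2 to 4 and in at most 4.64% of the cells of any other class and *Troy*-EGFP mouse. Before thinning, it was seen in 9 of 14, 12 of 22 and 13 of 35 upper HF-like cells. *Fos* was expected in 5.75% to 12.4% of IFE I-like cells and in 0.196% to 2.15% of lower HF-like cells, and was seen in 18 of 50 and 18 of 67 IFE I-like cells of mice 3 and 4 against 1 of 40 and 2 of 66 lower HF-like cells. In upper HF-like cells the thinned share of *Fos* was 24.99%, 1.25% and 3.60%, so that of mouse 3 lay below the 2.15% of lower HF-like cells in mouse 2, and the shares did not keep the order of the CPM values. For comparison, T cell-like cells of mouse 4 held *Egr2* in 2 of 26 cells, or 3.42% after thinning.

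**Figure D4:**
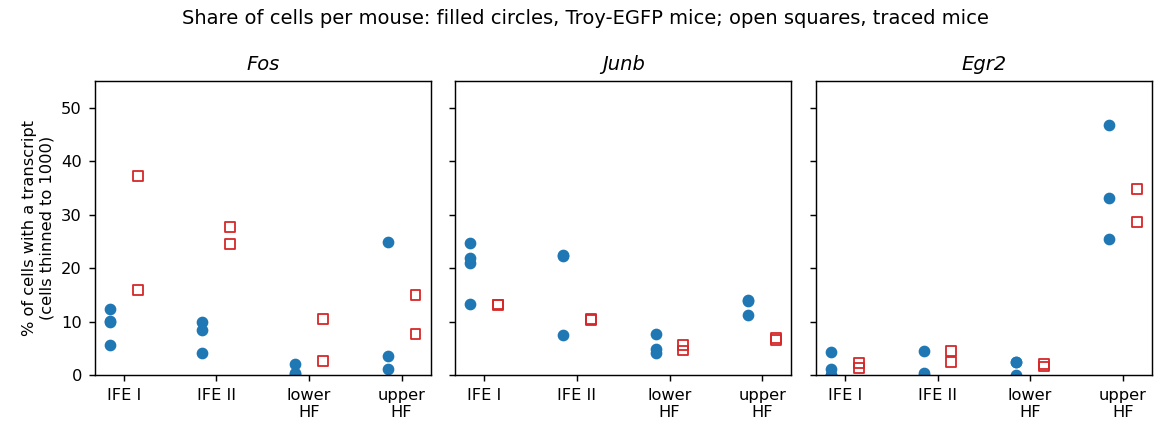
Expected share of cells with a transcript of *Fos*, *Junb* or *Egr2* after thinning each cell to 1000 transcripts, per mouse and class, with filled circles for *Troy*-EGFP mice and open squares for traced mice. Upper HF-like cells of *Troy*-EGFP mice lie between 25.5% and 46.9% for *Egr2*, and their lower HF-like cells at or below 2.15% for *Fos*, while lower HF-like cells of traced mice lie at 10.5% and 2.67%.

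Cells removed as non-epidermal also held members. In 38 Langerhans-like cells of 3 *Troy*-EGFP mice, *Zfp36* was at 326 CPM (95% Poisson interval 233 to 444), *Junb* at 310 CPM (219 to 425) and *Fos* at 155 CPM (93.2 to 242), while *Egr2* had 1 transcript. In 44 T cell-like cells, *Jund* was at 1022 CPM (832 to 1242) and *Junb* at 354 CPM (247 to 492), while *Atf3* had 0 transcripts, which allows up to 37.3 CPM. The intervals cover counting error only. Summed Langerhans cell markers in the epidermal sums of *Troy*-EGFP mice ranged from 81.3 to 822 CPM in IFE I-like and from 251 to 790.2 CPM in lower HF-like cells, the classes between which *Fos* did not overlap.

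Over the 13 sums of *Troy*-EGFP mice, the 5 genes of 2967 whose log2 CPM correlated best with *Fos* were *Carhsp1* (Pearson r = 0.895), *Slitrk6* (0.868), *Nlrc5* (0.847), *Junb* (0.844) and *Tfap2c* (0.840). Sums of a mouse share an animal and a plate, so these values are a description. Of the other members, *Ier2* had an r of 0.275, *Egr1* of 0.202, *Egr2* of 0.131, *Zfp36* of -0.0989, *Jun* of -0.175 and *Jund* of -0.438. Among cells of IFE I-like class in mice 2, 3 and 4, the r of *Fos* with *Jun* was 0.417, 0.408 and 0.322. It was -0.0971, 0.528 and 0.183 for *Zfp36*, 0.241, 0.187 and -0.00166 for *Junb*, -0.141, 0.348 and 0.207 for *Ier2*, -0.0138, 0.264 and 0.303 for *Jund*, and -0.000508, 0.174 and -0.115 for *Egr1*.

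The traced mice were set beside the *Troy*-EGFP mice in IFE I-like cells, with classes given by label transfer. *Egr1* was at 271 and 129 CPM in traced mice 1 and 2 and at 13.6 to 45.0 CPM in the 4 *Troy*-EGFP mice, and rose by 2.80 ± 0.52 (edgeR, adjusted p = 0.0460), where 0.714% of 4484 genes were called, 0.335% as higher and 0.379% as lower. It passed the filter only through the traced mice, with 79 and 28 transcripts there and 1, 5, 6 and 3 in *Troy*-EGFP mice, and without the filter the difference was 2.89 (adjusted p = 5.66e-05). *Fos* was at 723 and 291 CPM against 103 to 171 CPM, a difference of 1.72 ± 0.41 that was not called (adjusted p = 0.108) but was called without *Troy*-EGFP mouse 2 (1.77, adjusted p = 0.0329). For both genes the experiments did not overlap. *Atf3* differed by 2.19 ± 0.74 (adjusted p = 0.213) and *Junb* by -0.70 ± 0.39 (adjusted p = 0.444).

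The call of *Egr1* was lost without traced mouse 1 (2.20, adjusted p = 0.822), without traced mouse 2 (3.23, adjusted p = 0.239), and without *Troy*-EGFP mouse 1 (2.81, adjusted p = 0.0850), mouse 3 (2.91, adjusted p = 0.0799) or mouse 4 (2.43, adjusted p = 0.123). With 1 traced mouse left, that mouse was assumed to vary like the *Troy*-EGFP mice. Genotype, tamoxifen, gates, plates and, in part, sex differ between the experiments and cannot be told apart. Both traced mice were male, while *Xist* was seen on the plates of *Troy*-EGFP mice 3 and 4. Transcripts of *Mir1950*, *Kcnq1ot1*, *Lipi* and *Mid1*, the markers of necrotic or removed cells, summed to 620 and 768 CPM in IFE I-like cells of traced mice and to 7705 to 31946 CPM in those of *Troy*-EGFP mice, and the 11 heat shock genes summed to 6319 and 6439 CPM against 3792 to 5532 CPM. Their part in the difference was not tested. The median difference was 0.94 over the 9 members tested and -0.0019 over all genes.

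Within the traced mice, *Egr2*, *Fos*, *Junb* and *Atf3* were called between classes. *Egr2* stood at 497 and 442 CPM in upper HF-like and at 23.7 and 18.2 CPM in lower HF-like cells. The difference was 4.45 ± 0.82 (edgeR, adjusted p = 0.0025 over 5607 genes, 3.21% called). *Egr2* again passed the filter on low counts only through upper HF-like cells, with 90 and 86 transcripts there in traced mice. Their other sums held 6 and 7 (IFE I-like), 6 and 4 (IFE II-like) and 4 and 4 (lower HF-like). *Fos* differed between IFE-like and HF-like classes by 2.11 ± 0.50 (edgeR, adjusted p = 0.0121, 5.87% called) and *Junb* by 1.31 ± 0.34 (adjusted p = 0.0247). *Atf3* differed by 2.26 ± 0.61 (adjusted p = 0.0299), for which the same fit gave -0.21 in the *Troy*-EGFP mice. *Atf3* passed the filter on low counts only through traced IFE-like sums, with 22 and 16 transcripts in IFE I-like and 16 and 8 in IFE II-like cells. Traced HF-like sums held 6 and 10 (lower) and 1 and 2 (upper), so this gene entered the test through its high classes. *Fos* differed by 0.45 ± 0.73 between upper and lower HF-like cells of the traced mice. The labels of traced cells came from the *Troy*-EGFP cells without the members. Tests of whether a class difference itself differed between the experiments without the mouse as a block called 0 of 30 in edgeR (0% of all genes), with 1 at an unadjusted p under 0.05, that of *Atf3* between IFE-like and HF-like classes, where the experiments differed by 2.46 ± 1.03. With the mouse as a block, an alternative chosen after seeing the data, these tests again called 0 of 30, while 9 calls were made over all genes (0.0892%, 0% and 0.0713% of 5607 in the 3 comparisons). Of the members, 4 then had an unadjusted p under 0.05, with differences of -1.81 ± 0.80 for *Fosb* and 2.56 ± 1.07 for *Atf3* between IFE-like and HF-like classes, and of -2.22 ± 0.88 for *Fos* and 1.30 ± 0.64 for *Zfp36* between upper and lower HF-like cells. Within the traced mice that fit also called *Egr2* between IFE-like and HF-like classes (-1.50, adjusted p = 0.0496), where it called 13.8% of all genes.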

How the data were processed

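Bulk mRNA (CEL-Seq2) and single-cell mRNA (SORT-seq) were measured in sorted mouse epidermal cells. The bulk counts were deposited by the authors as whole numbers, without normalization. The single-cell tables were deposited as estimated counts of transcripts in each well, corrected for molecular barcodes drawn more than once, and turned back into whole barcodes within 1e-06 for barcodes of 6 bases, although the protocol text names shorter ones. The submitters' processing notes name BWA 0.6.2-r126 and the mouse build mm10 (GRCm38), and for the bulk samples also the human build hg19, whose role is not given. The genes and lists were chosen with earlier results of these data known.

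Bulk counts were normalized by TMM, filtered with filterByExpr and tested in R 4.3.3 with the quasi-likelihood test of edgeR 4.0.16, with p adjusted by Benjamini-Hochberg and called at 0.05. DESeq2 1.42.0 was an alternative. Cells were clustered with Seurat 5.3.0, SeuratObject 5.2.0 and sctransform 0.4.2 (3000 variable genes, 20 principal components, resolution 0.8), without 90 genes that were members or on the lists. Each cluster was named for the marker list of highest mean log2 fold if that mean was above 0, if 3 or more of the markers were detected, and unless the top 10 genes held more markers of another list. The naming was settled after clusters had been seen. Clusters named for T cells, Langerhans cells or necrotic or removed cells were dropped, and doublets were not called. Traced cells were named by label transfer. Sums per mouse and class (at least 10 cells) were rounded and tested with edgeR. Named genes were the members, list genes called in a comparison and the 5 genes most like *Fos*.

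Populations or classes with the same number are from the same mouse and are thus paired. Their deviations from the group means correlated by 0.0521 to 0.0900 in bulk and by a median of 0.524 among class sums. Alternatives are given in the closing section.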

Additional observations from a re-analysis of the deposited data

Results flagged for a closer look

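Over all kept wells, the *Egr1* level of *Troy*-EGFP mouse 2 was 173.0 CPM and stood apart from the other 3 *Troy*-EGFP mice, at 26.0, 27.2 and 42.3 CPM, by Dixon's test at 95%. It was the only such value among 20 groups of 4 mice tested (10 members, in all wells and in IFE I-like cells), where chance marks about 1 in 20. In the class sums of that mouse, *Egr1* was at 576 CPM in 14 upper HF-like cells and at 169.5 CPM in 41 lower HF-like cells.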

How the results depend on the processing

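Over single genes, 693 of 805 alternative values kept their direction and side of the threshold or moved by less than their error, 59 lost a call, 14 gained one, 9 moved and 30 changed direction, all of the last in genes not called under the main design. With the mouse as a replicate block, the number of genes called rose from 303 to 590 between IFE-like and HF-like classes, from 132 to 365 between IFE II-like and IFE I-like cells and from 192 to 439 between upper and lower HF-like cells, while 10 genes instead of 8 were called between ITGA6bright and viable cells, and 8 list genes instead of 6 between *Troy*-EGFP+ and *Troy*-EGFP– cells. Beside the results named with it, the block changed no call of a member or list gene in the class comparisons. Adding the traced mice gave 528, 314 and 339 genes. Wells with at least 2000 transcripts gave 71 and 111 genes in the last 2 comparisons. Without a filter, 229 genes were called between IFE II-like and IFE I-like cells and 332 between the experiments (32 with the filter), where DESeq2 called 65. DESeq2 called 4 genes between ITGA6bright and viable cells (8 in edgeR). Leaving out 1 library or mouse gave 2 to 13 list genes in the *Troy*-EGFP contrast, 4 to 92 genes for ITGA6bright against viable cells, 54 to 474 for IFE against HF, 0 to 323 for IFE II against IFE I, 14 to 293 for upper against lower HF, and 0 to 295 between the experiments. The cause of these shifts was not tested.

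The values that changed direction were these. *Egr1* was 0.31 in IFE against HF (-1.47) and -0.89 in upper against lower HF (1.53) in wells with at least 2000 transcripts, and -0.78 in the latter with at least 20 cells per sum. In IFE II against IFE I, *Fos* (-0.12) was 0.087 with at least 20 cells, *Junb* (-0.002) was 0.01 in DESeq2, 0.003 with its size factors, 0.22 with at least 20 cells, 0.022 without a filter and 0.091 with at least 2000 transcripts, and *Jund* (0.07) was -0.021 with the block, -0.10 with traced mice and -0.14 with at least 2000 transcripts. *Jund* between the experiments (-0.01) was 0.004 in DESeq2 and 0.085 without a filter, and in upper against lower HF (0.03) it was -0.068 with traced mice and -0.079 without the *Aspn*-led cluster, an alternative chosen after seeing the data. *Zfp36* was -0.12 in IFE against HF (0.12) with at least 2000 transcripts, and in upper against lower HF (-0.53) 0.22 with traced mice and 0.093 with at least 2000 transcripts. With 1 library or mouse left out, *Fos* (IFE II against IFE I) ranged from -0.57 to 0.18, *Jun* (upper against lower HF) from -0.59 to 0.073, *Junb* (IFE II against IFE I) from -0.12 to 0.12, *Jund* from -0.048 to 0.17, -0.11 to 0.13 and -0.12 to 0.22 (IFE II against IFE I, experiments, upper against lower HF) and *Zfp36* (IFE against HF) from -0.12 to 0.34. Some of these values rest on few transcripts, such as 15 of *Egr1* in IFE I-like cells of *Troy*-EGFP mice. The part of depth in them was not tested.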
